A study of Bos taurus with 12 samples.

Results

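This comparison sets bovine embryonic stem cells grown in the supplemented low-feeder condition, 1/7MC+Pyr+FGF, against the same cells in the full condition, MC. It uses 6 of the 12 RNA-seq libraries of the series: the 3 libraries of 1/7MC+Pyr+FGF and the 3 of MC, chosen by their labels. All are from the line F7, described as wild type, and no animal age, passage or dose is given. The 1/7MC+Pyr+FGF libraries carry the treatment label of that name. Per the series title, Pyr is pyruvate, FGF is recombinant human basic fibroblast growth factor, and the feeder layer is a low-density one. The MC libraries carry the treatment label NC, and MC is a name that is not spelled out in the labels. The supplemented condition differs from MC in its feeder level and in both supplements at once, so these cannot be told apart here. The other groups, 1/7MC+Pyr and 1/7MC, have 3 libraries each and entered the fit for its estimate of the spread. The levels of a few genes and summed lists in them close the account. A single line was studied, and nothing in the labels says whether the 3 libraries of a group came from separate cultures. The p-values therefore measure the spread between these libraries, which may be technical.

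Bovine embryonic stem cells are usually kept on a feeder layer of growth-arrested fibroblasts, which supplies matrix, growth factors and metabolites. Basic FGF signals through FGF receptors and the ERK kinases, and in primed pluripotent cells it is commonly supplied together with activin or inhibitors of WNT signalling. Pyruvate stands at the branch between lactate, made by lactate dehydrogenase, and acetyl-CoA, which feeds the tricarboxylic acid cycle and lipid synthesis.

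Total counts were 44440972, 34526123 and 36601540 in the 1/7MC+Pyr+FGF libraries, against 35483180, 31709905 and 27373759 in the MC libraries. Levels are CPM, counts scaled to the library size, and 1 CPM stood for 27.0 to 43.9 reads. The gene models behind the counts of MC replicates 2 and 3 were not those of the other 10 libraries. These 2 correlated with each other at 0.994 but with MC replicate 1 at 0.971 and 0.970 (log2 CPM over all genes tested). With the 1/7MC+Pyr+FGF libraries, MC replicate 1 correlated at 0.967, 0.970 and 0.966, about as closely as with its own group. MC replicates 2 and 3 correlated with the 1/7MC+Pyr+FGF libraries at 0.946 to 0.950. Of 10425 genes with a mean of at least 5 CPM, 624 (5.99%) had MC replicates 2 and 3 on average at least 2-fold from MC replicate 1. A gene was therefore said to have risen or fallen only when its adjusted p (edgeR's quasi-likelihood test, Benjamini-Hochberg) was under 0.05 and its direction was the same when MC replicate 1 stood alone for MC. A gene that also had an adjusted p under 0.05 in that second fit is said to have passed both fits. The lone MC library of the second fit has no replicate, and its spread is taken from the other groups. Fold changes are log2 of 1/7MC+Pyr+FGF over MC, given with their SE.

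The supplemented low-feeder cells held higher levels of matrix, TGF-beta and sterol synthesis genes. They held lower levels of epithelial, eye-field and immediate early genes and of LDHA. The shared pluripotency list was mixed, as 3 of its 12 tested members rose, NANOG among them, and 4 fell. The hypoxia-response list was mixed, as 10 of its 22 members fell, CA9 and BNIP3 among them, and 7 rose. Of 13920 genes tested, 4458 (32.0%) changed. Of these, 2376 (17.1%) rose and 2082 (15.0%) fell. Both fits were passed by 1567 genes (11.3%), of which 808 (5.80%) rose and 759 (5.45%) fell. A further 69 genes were past the threshold but turned direction with MC replicate 1 alone, and they are not counted. At least a 2-fold change in both fits was seen for 815 genes, with 436 higher and 379 lower. The median log2 fold change of all genes tested was 0.04. Each gene list below is read against these shares. With single libraries left out, the number of genes that changed was 2997 to 4471. Without MC replicate 2 or 3 the number that rose was 1544 or 1583.

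**Figure D1:**
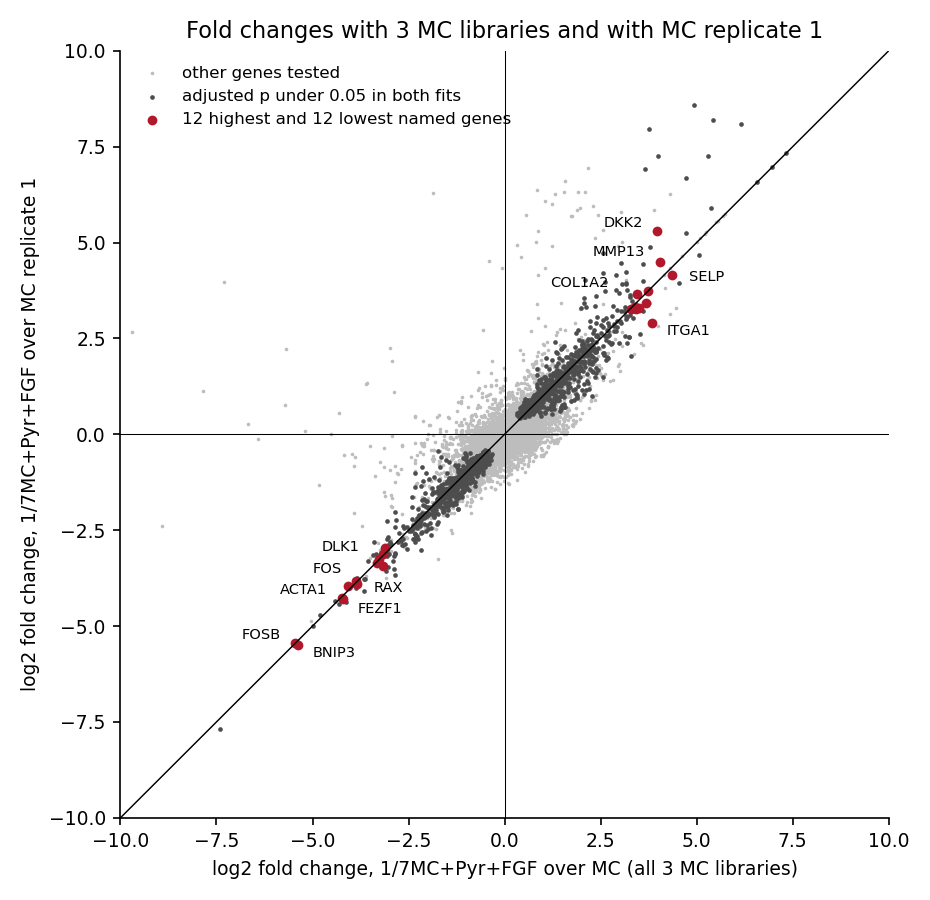
Log2 fold change of 1/7MC+Pyr+FGF over MC for each gene tested, from the fit with 3 MC libraries (horizontal) and from the fit with MC replicate 1 alone (vertical); the diagonal marks equal values. The 12 highest and 12 lowest named genes are in red. They were chosen among genes that passed both fits, so their shared direction on both axes was fixed by that choice. Among them DKK2 (3.97 and 5.29) and ITGA1 (3.84 and 2.90) lie furthest from the diagonal. Points far from it are genes whose fold change depends on MC replicates 2 and 3.

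Apart from DPPA2, the pluripotency markers whose levels are given here were present in both conditions, and they did not move as one. NANOG, a homeobox factor of the pluripotency network, rose. It had 113, 80.2 and 78.0 CPM in 1/7MC+Pyr+FGF, against 34.1, 40.3 and 40.9 CPM in MC (log2 fold change 1.24 ± 0.15, adjusted p = 9.41e-05), with every 1/7MC+Pyr+FGF library above every MC library. Libraries of the 2 groups did not overlap in the same way for 44.2% of all genes tested. PRDM14, a repressor that guards pluripotency, also rose, at 129.7, 146 and 126 CPM in 1/7MC+Pyr+FGF, against 89.6, 97.6 and 93.2 CPM in MC (log2 fold change 0.52 ± 0.09, adjusted p = 8.56e-04). ZSCAN10, a zinc-finger factor of pluripotent cells, fell, at 64.6, 82.0 and 73.6 CPM in 1/7MC+Pyr+FGF, against 132, 133 and 128 CPM in MC (log2 fold change -0.84 ± 0.11, adjusted p = 1.44e-04). POU5F1, which encodes OCT4, had 1389.9, 1016 and 1044 CPM in 1/7MC+Pyr+FGF, against 1120.2, 1073 and 1087 CPM in MC (log2 fold change 0.07 ± 0.12, adjusted p = 0.682), and the groups overlapped. A p above the threshold does not show that its levels were equal. Of the 12 tested members of the shared pluripotency list, 3 rose and 4 fell, of which 2 and 1 passed both fits. DNMT3B (-0.40), LIN28A (-0.42) and TRIM71 (-1.01) fell and FOXD3 (0.69) rose, but these 4 did not pass with MC replicate 1 alone. LIN28A, an RNA-binding protein that blocks let-7 maturation, had 482, 461 and 372 CPM in 1/7MC+Pyr+FGF, against 563, 608 and 584 CPM in MC. The de novo DNA methyltransferase DNMT3B had 1212, 1433 and 1214 CPM in 1/7MC+Pyr+FGF, against 1717, 1682 and 1695 CPM in MC. SALL4 had 329, 437 and 399 CPM in 1/7MC+Pyr+FGF, against 496, 407 and 393 CPM in MC, overlapping between the groups (adjusted p = 0.329). The summed level of the shared pluripotency list was 3745, 3690 and 3332 CPM in 1/7MC+Pyr+FGF, against 4182, 4087 and 4065 CPM in MC. SOX2 was not analysed here. LIN28B, TDGF1, UTF1 and L1TD1 had no entry under these symbols, and DPPA2 was at or under 0.0742 CPM in all 6 libraries.

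Among factors of the naive state, KLF4 and TFAP2C fell and TBX3 rose in both fits. KLF4, a Krüppel-like factor, had 2.34, 2.27 and 2.61 CPM in 1/7MC+Pyr+FGF, against 5.80, 6.22 and 5.57 CPM in MC (log2 fold change -1.28 ± 0.19, adjusted p = 4.19e-04). TFAP2C, an AP-2 factor, had 2.53, 2.27 and 2.30 CPM in 1/7MC+Pyr+FGF, against 5.71, 5.17 and 5.42 CPM in MC (log2 fold change -1.20 ± 0.16, adjusted p = 2.11e-04). TBX3, a T-box repressor, had 2.34, 2.33 and 3.66 CPM in 1/7MC+Pyr+FGF, against 0.924, 0.511 and 0.742 CPM in MC (log2 fold change 1.92 ± 0.25, adjusted p = 1.41e-04). All 3 were low transcripts with groups that did not overlap. ESRRB had 1.99, 2.45 and 3.00 CPM in 1/7MC+Pyr+FGF, against 3.59, 6.54 and 8.46 CPM in MC (adjusted p = 0.205 with MC replicate 1 alone). In all, 2 of 9 tested members rose and 3 fell, and 1 rose without 1/7MC+Pyr+FGF replicate 2 or without MC replicate 3. Of 16 tested members of the primed and formative list, 2 rose and 7 fell, of which 1 and 3 passed both fits. POU3F1, also called OCT6, fell the furthest of those 3, with 11.6, 12.4 and 16.4 CPM in 1/7MC+Pyr+FGF, against 47.6, 48.5 and 46.1 CPM in MC (log2 fold change -1.82 ± 0.13, adjusted p = 1.46e-06). CRABP1, which binds retinoic acid in the cytoplasm, had 126, 65.3 and 112 CPM in 1/7MC+Pyr+FGF, against 219, 202 and 223 CPM in MC (log2 fold change -1.08 ± 0.24, adjusted p = 0.00434), and SALL2 fell by 0.60 on the log2 scale. OTX2, a factor of the primed state and of the anterior neural plate, had 195, 160.0 and 168 CPM in 1/7MC+Pyr+FGF, against 180.1, 161 and 159 CPM in MC (log2 fold change 0.07 ± 0.10, adjusted p = 0.621).

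**Figure D2:**
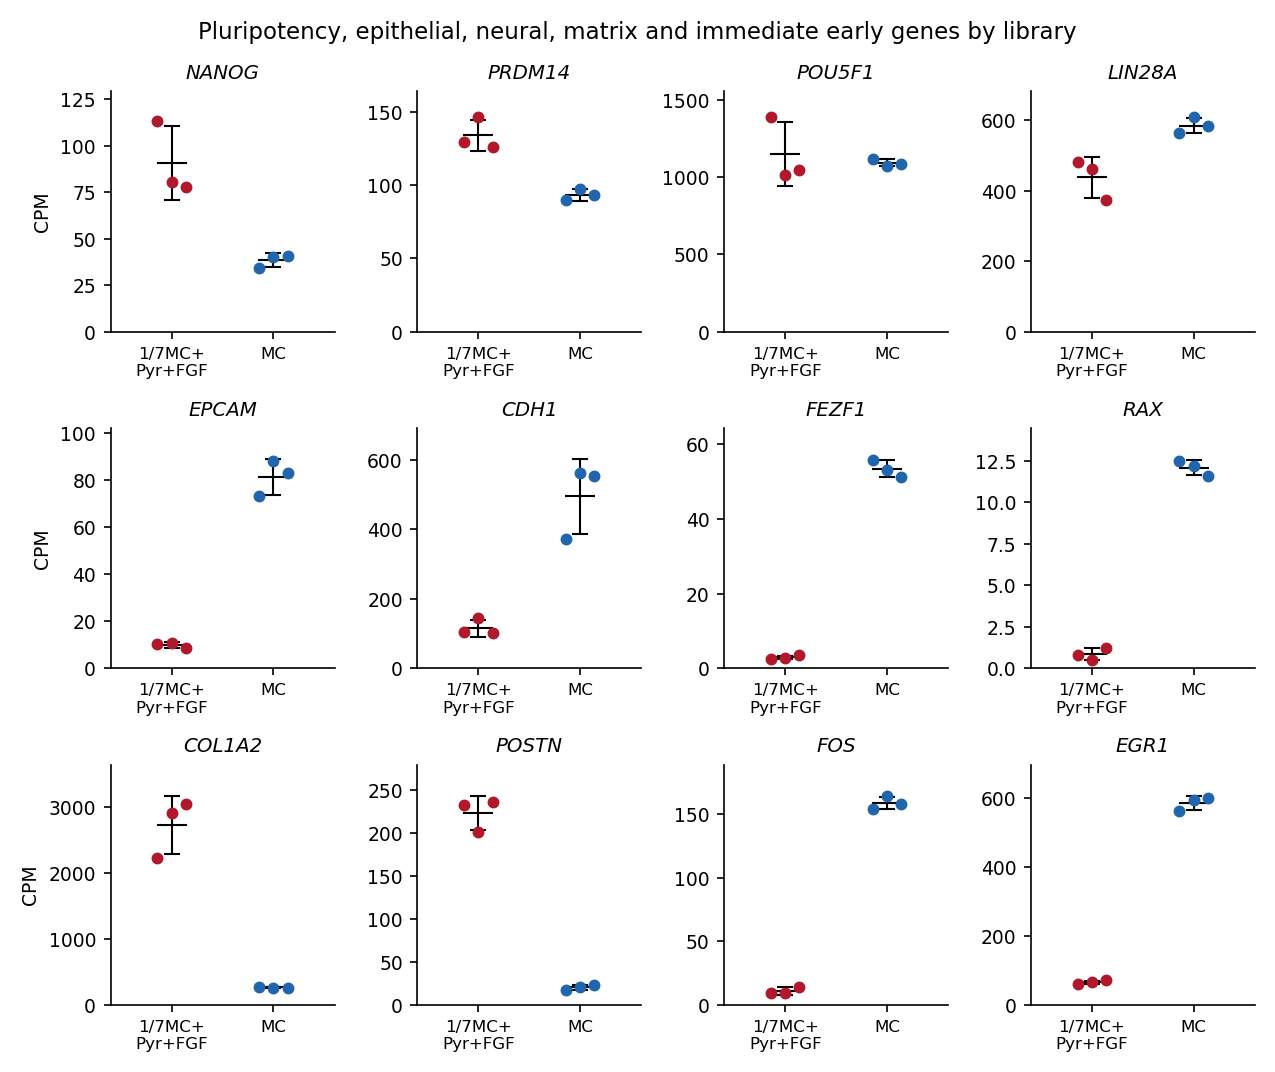
CPM by library (points, replicates 1 to 3 from left to right) in 1/7MC+Pyr+FGF and in MC, with the mean and SD of 3 libraries, for 12 genes of cell identity and signalling; each axis starts at 0. The groups are apart for NANOG and PRDM14 (higher in 1/7MC+Pyr+FGF) and for EPCAM, FEZF1 and RAX (lower), while they overlap for POU5F1.

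Eye-field and forebrain factors fell. FEZF1, a forebrain zinc-finger repressor, had 2.55, 2.66 and 3.43 CPM in 1/7MC+Pyr+FGF, against 55.8, 53.1 and 51.2 CPM in MC (log2 fold change -4.21 ± 0.18, adjusted p = 2.84e-08). RAX, the retina and anterior neural fold homeobox factor, had 0.773, 0.514 and 1.22 CPM in 1/7MC+Pyr+FGF, against 12.5, 12.2 and 11.6 CPM in MC (log2 fold change -3.85 ± 0.28, adjusted p = 1.58e-06). MC libraries were thus above 10 CPM for both genes, and no 1/7MC+Pyr+FGF library reached 4 CPM. Of 20 tested members of the neural and eye ectoderm list, 10 fell and 4 rose. Passing both fits were 9 falls, which were FEZF1, RAX, PAX2, RLBP1, LHX5, PAX6, SIX6, FEZF2 and SIX3, and 2 rises. The list median was -0.72. The rises were RORB, an orphan nuclear receptor of the retina, with 2.18, 1.66 and 1.73 CPM in 1/7MC+Pyr+FGF, against 0.196, 0.255 and 0.186 CPM in MC, and PAX5, a paired-box factor of B cells and the midbrain, with 2.15, 2.78 and 2.86 CPM in 1/7MC+Pyr+FGF, against 0.616, 0.0958 and 0 CPM in MC. PAX5 was near or at 0 in MC, and its log2 fold change was 3.30 ± 0.51 with 3 MC libraries, 2.05 with MC replicate 1 alone and 5.55 without MC replicate 1. Without 1/7MC+Pyr+FGF replicate 1 or 3, or without MC replicate 2, 2 members of this list rose. Also low in 1/7MC+Pyr+FGF were 3 genes among the 12 lowest fold changes of non-LOC symbols that passed both fits with groups that did not overlap and averaged at least 5 CPM in MC. ROBO3, an axon guidance receptor, had 0.422, 0.484 and 0.652 CPM in 1/7MC+Pyr+FGF, against 7.98, 9.80 and 8.72 CPM in MC. RELN, a secreted matrix protein of the cortex, had 0.515, 0.726 and 0.992 CPM in 1/7MC+Pyr+FGF, against 7.84, 6.54 and 5.46 CPM in MC. FOXB2, a forkhead factor, had 0.375, 0.726 and 0.765 CPM in 1/7MC+Pyr+FGF, against 4.79, 5.62 and 5.72 CPM in MC. Of 14 tested neuropeptide and neuronal genes, 5 fell and 2 rose, and SYT1, a calcium sensor of synaptic vesicles, was the 1 that passed both fits (6.98, 8.17 and 7.94 CPM in 1/7MC+Pyr+FGF, against 16.7, 16.9 and 16.3 CPM in MC). Between 3 and 5 of these fell, and between 0 and 2 rose, when single libraries were left out.

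Matrix and fibroblast genes rose together. All 31 tested members of the fibroblast and feeder list rose, 25 of them in both fits, with a list median of 1.58. COL1A2, a chain of type I collagen, had 2222, 2905 and 3049 CPM in 1/7MC+Pyr+FGF, against 273, 259 and 261 CPM in MC (log2 fold change 3.37 ± 0.21, adjusted p = 5.56e-07). POSTN, the matricellular protein periostin, had 233, 201 and 236 CPM in 1/7MC+Pyr+FGF, against 17.4, 21.2 and 22.4 CPM in MC (log2 fold change 3.46 ± 0.15, adjusted p = 2.84e-08). Every 1/7MC+Pyr+FGF library was more than 7 times every MC library for both. TNC, tenascin C, had 909.6, 1509 and 1379 CPM in 1/7MC+Pyr+FGF, against 178, 177 and 172 CPM in MC. COL6A1, a type VI collagen chain, had 331, 466 and 451 CPM in 1/7MC+Pyr+FGF, against 63.6, 55.8 and 53.6 CPM in MC. THY1, a surface marker of fibroblasts, had 16.0, 16.5 and 18.0 CPM in 1/7MC+Pyr+FGF, against 3.28, 3.54 and 3.71 CPM in MC (log2 fold change 2.26 ± 0.19, adjusted p = 3.92e-06). The list ranged from LOXL1 at 0.51 to POSTN at 3.46, and the 6 members that passed only with 3 MC libraries were LOXL1, FSTL1, DCN, PDGFRB, COL5A1 and FAP. The summed level of the list was 23882, 31669 and 32473 CPM in the 1/7MC+Pyr+FGF libraries, against 10579.8, 10818 and 10852 CPM in the MC libraries. These bulk libraries do not show which cells made these transcripts. A different number of cells and a different amount of RNA per cell cannot be told apart in them. The labels do not give the species or number of the feeder cells, and the part of feeder RNA in these levels was not tested.

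Genes that remodel matrix moved the same way. Of 19 tested matrix protease and plasminogen genes 14 rose, 10 in both fits, and 0 fell (0 at an unadjusted p under 0.05, and 0 with DESeq2). MMP13, a collagenase, had 6.49, 7.96 and 6.86 CPM in 1/7MC+Pyr+FGF, against 0.308, 0.447 and 0.557 CPM in MC (log2 fold change 4.03 ± 0.34, adjusted p = 4.10e-06). ADAM12, a metalloprotease of mesenchymal cells, had 1.97, 3.09 and 3.26 CPM in 1/7MC+Pyr+FGF, against 0.168, 0.415 and 0.0742 CPM in MC (log2 fold change 3.61, and 4.40 without MC replicate 2). PLAUR, the urokinase receptor, had 10.8, 9.62 and 10.1 CPM in 1/7MC+Pyr+FGF, against 2.66, 2.59 and 2.67 CPM in MC. Integrin subunits moved in both directions, as 9 of 17 rose, 6 in both fits, and 3 fell, 2 in both. ITGA1, a collagen-binding subunit, had 20.5, 24.6 and 32.0 CPM in 1/7MC+Pyr+FGF, against 3.39, 0.894 and 0.928 CPM in MC (log2 fold change 3.84 ± 0.40, adjusted p = 2.32e-05), and its log2 fold change was 2.90 with MC replicate 1 alone and 4.81 without that library. ITGB5, which pairs with ITGAV to bind vitronectin, had 45.2, 44.8 and 54.5 CPM in 1/7MC+Pyr+FGF, against 9.75, 13.1 and 11.6 CPM in MC. ITGA11, another collagen-binding subunit, had 3.91, 4.69 and 5.10 CPM in 1/7MC+Pyr+FGF, against 1.09, 1.12 and 1.22 CPM in MC. ITGB4, the hemidesmosome subunit of epithelia, fell, with 8.85, 9.83 and 10.6 CPM in 1/7MC+Pyr+FGF, against 30.3, 35.8 and 31.0 CPM in MC (log2 fold change -1.73 ± 0.14, adjusted p = 3.14e-06), and ITGA7, a laminin-binding subunit, fell by 1.55 on the log2 scale. CEMIP, which depolymerizes hyaluronan, had 5.22, 10.2 and 7.14 CPM in 1/7MC+Pyr+FGF, against 0.756, 0.607 and 0.594 CPM in MC. P3H2, a collagen prolyl hydroxylase, had 35.0, 36.9 and 48.7 CPM in 1/7MC+Pyr+FGF, against 3.95, 3.58 and 3.97 CPM in MC.

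Most TGF-beta ligands, binding proteins and targets tested rose. Of 20 tested members 14 rose, 12 in both fits, and the list median was 1.00. Among ligands, TGFB2 had 45.2, 60.2 and 70.8 CPM in 1/7MC+Pyr+FGF, against 13.8, 11.7 and 11.3 CPM in MC (log2 fold change 2.26 ± 0.17, adjusted p = 2.20e-06), and TGFB3 rose by 1.86 and INHBA, an activin subunit, by 1.65 on the log2 scale. LTBP2, of the latent TGF-beta binding family, had 12.9, 21.8 and 16.6 CPM in 1/7MC+Pyr+FGF, against 3.73, 3.19 and 2.97 CPM in MC. Of the targets and inhibitors, BAMBI, a decoy receptor, had 19.3, 17.1 and 27.9 CPM in 1/7MC+Pyr+FGF, against 2.30, 2.07 and 2.26 CPM in MC (log2 fold change 3.27 ± 0.19, adjusted p = 2.49e-07). TGFBI, a secreted matrix protein induced by TGF-beta, had 247, 259 and 275 CPM in 1/7MC+Pyr+FGF, against 52.2, 53.9 and 53.4 CPM in MC. CCN1, a secreted matrix-associated protein, fell by 0.38 with 3 MC libraries, a call lost without 1/7MC+Pyr+FGF replicate 1 or 3 or MC replicate 2 or 3. Of 10 factors of mesenchymal transition, 7 rose, 3 in both fits, and TWIST2 fell. SNAI2, which represses CDH1, had 6.37, 6.05 and 8.11 CPM in 1/7MC+Pyr+FGF, against 1.54, 1.53 and 1.37 CPM in MC (log2 fold change 2.20 ± 0.16, adjusted p = 1.38e-06). TWIST1 had 9.11, 10.7 and 11.6 CPM in 1/7MC+Pyr+FGF, against 3.22, 3.16 and 3.15 CPM in MC, and PRRX1 rose by 1.35. TWIST2 had 1.50, 2.21 and 1.05 CPM in 1/7MC+Pyr+FGF, against 4.06, 4.63 and 3.56 CPM in MC (log2 fold change -1.37 ± 0.27, adjusted p = 0.0026), so TWIST1 and TWIST2 moved in opposite directions. The summed level of the fibroblast list was higher in the same libraries for all these groups. Its part in them was not tested.

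Epithelial junction genes fell. Of 26 tested members of the epithelial junction and keratin list 15 fell, 13 in both fits, and 2 rose in both, with a list median of -0.63. EPCAM, an epithelial adhesion molecule of pluripotent cells, had 10.2, 10.9 and 8.70 CPM in 1/7MC+Pyr+FGF, against 73.0, 87.8 and 82.8 CPM in MC (log2 fold change -3.03 ± 0.12, adjusted p = 2.46e-08). CDH1, E-cadherin, had 103, 144 and 100.2 CPM in 1/7MC+Pyr+FGF, against 372, 561 and 555 CPM in MC (log2 fold change -2.10 ± 0.20, adjusted p = 1.33e-05), with MC replicate 1 well below the other 2 MC libraries and still above every 1/7MC+Pyr+FGF library. ESRP1, a splicing regulator of epithelial cells, had 3.04, 3.69 and 2.78 CPM in 1/7MC+Pyr+FGF, against 21.8, 22.2 and 21.5 CPM in MC. The tight junction protein CLDN7 had 1.73, 1.36 and 1.76 CPM in 1/7MC+Pyr+FGF, against 9.19, 8.46 and 9.83 CPM in MC, and the membrane protease ST14 had 10.7, 13.6 and 9.98 CPM in 1/7MC+Pyr+FGF, against 48.7, 55.8 and 56.1 CPM in MC. The 2 members that rose were KRT18 (0.59), a simple keratin, and DSC2 (0.82), a desmosomal cadherin. KRT8, the partner of KRT18, did not pass at 0.14 (adjusted p = 0.387). The summed level of the fibroblast list was higher in the libraries where epithelial and eye-field genes were lower. Its part in these falls was not tested.

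**Figure D3:**
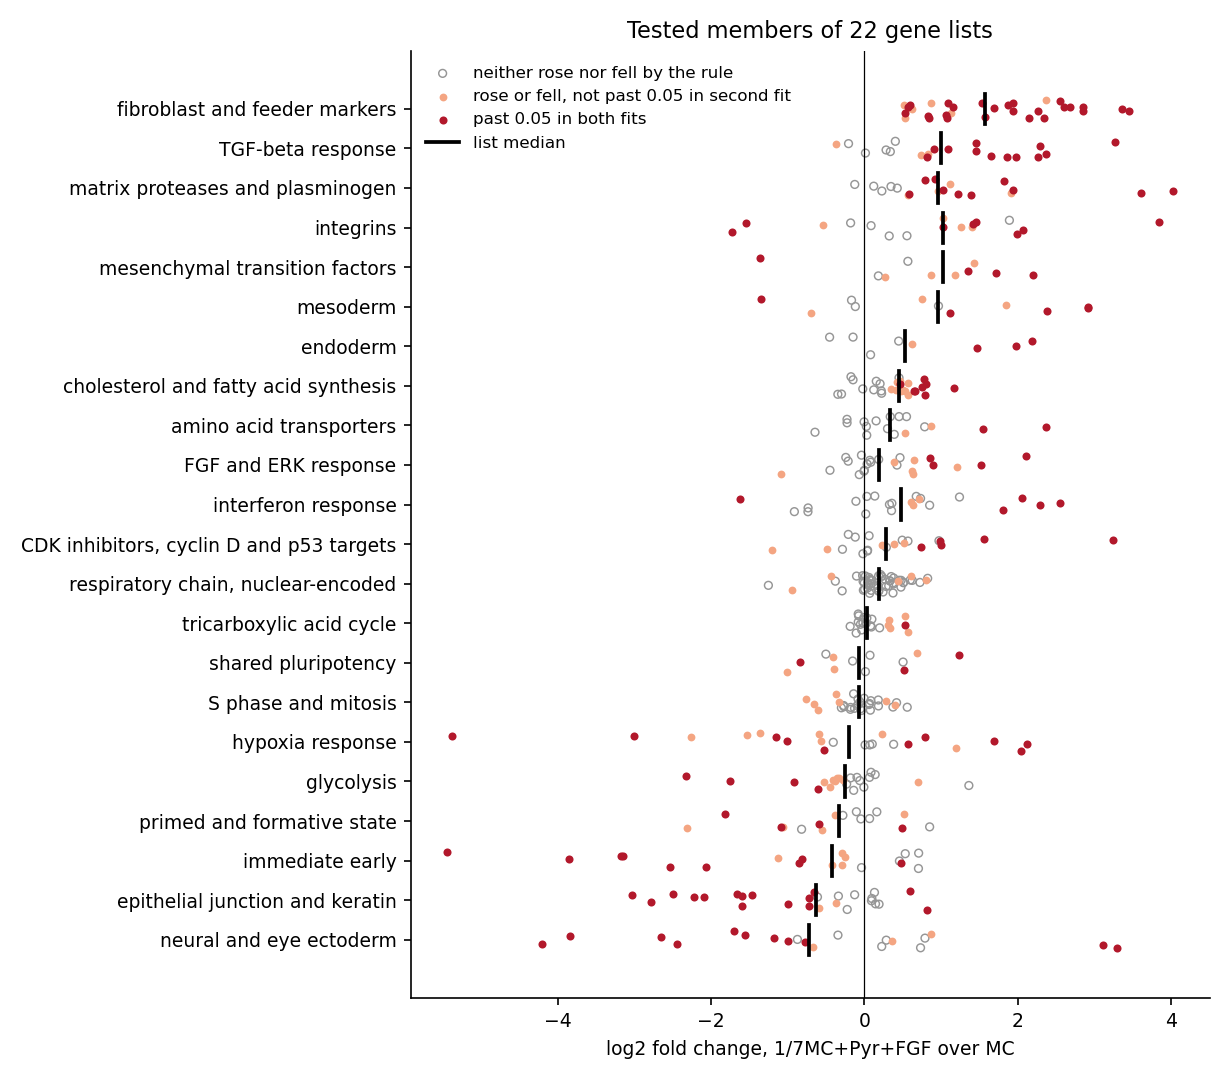
Log2 fold change of 1/7MC+Pyr+FGF over MC for each tested member of 22 gene lists (points; vertical position within a row is only for legibility), with the list median as a bar. Red points passed both fits, orange points rose or fell by the rule of the text without passing the second fit, and open points did neither. Members of the fibroblast list are all right of 0, and the medians of the epithelial and neural lists, at -0.63 and -0.72, are the 2 lowest of the 22 lists drawn, which leave out the naive state list (9 tested members, median -0.74).

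Genes of other lineages moved in both directions. Of 11 tested mesoderm genes 6 rose, 4 in both fits, and 2 fell, 1 in both (1 fell without MC replicate 3). ISL1, a LIM homeobox factor of heart progenitors, had 5.20, 4.21 and 7.68 CPM in 1/7MC+Pyr+FGF, against 0.588, 0.894 and 0.779 CPM in MC (log2 fold change 2.92 ± 0.26, adjusted p = 6.04e-06). TBX2, a T-box repressor, had 2.13, 1.54 and 2.95 CPM in 1/7MC+Pyr+FGF, against 0.280, 0.223 and 0.371 CPM in MC. EOMES, a T-box factor of the primitive streak, fell by 1.35 on the log2 scale. Of 8 tested endoderm genes 4 rose, 3 in both fits, and 0 fell (0 at an unadjusted p under 0.05, and 0 with DESeq2). These 3 were APOA1 and the basement membrane collagens COL4A1 and COL4A2, none of which specifies endoderm. APOA1, an apolipoprotein, had 556, 510.4 and 496 CPM in 1/7MC+Pyr+FGF, against 169, 194 and 199.7 CPM in MC (log2 fold change 1.47 ± 0.09, adjusted p = 3.15e-07). COL4A1 had 870.3, 1303 and 1232 CPM in 1/7MC+Pyr+FGF, against 249, 253 and 243 CPM in MC. The endoderm factors FOXA2, SOX17 and GATA4 were removed by the filter on low counts. Their highest levels in the 6 libraries were 3.60, 0.514 and 0.224 CPM, so FOXA2 was detected but not tested. Of 8 trophectoderm genes GATA3 rose, with 2.51, 2.42 and 5.24 CPM in 1/7MC+Pyr+FGF, against 0.728, 0.702 and 0.482 CPM in MC, and KRT7 and GATA2 fell. KRT7, a keratin of trophoblast and ducts, had 8.10, 10.3 and 7.68 CPM in 1/7MC+Pyr+FGF, against 22.8, 22.6 and 23.8 CPM in MC (log2 fold change -1.41 ± 0.14, adjusted p = 2.13e-05). Among 11 tested endothelial and blood genes, 4 rose (2 without 1/7MC+Pyr+FGF replicate 2 or MC replicate 2), and TAL1 was the 1 that passed both fits. TAL1, a helix-loop-helix factor of blood and endothelium, had 10.5, 12.2 and 11.9 CPM in 1/7MC+Pyr+FGF, against 1.51, 2.90 and 2.30 CPM in MC. The summed level of that list was 42.0, 52.0 and 41.0 CPM in 1/7MC+Pyr+FGF, against 24.9, 26.6 and 25.2 CPM in MC, and PECAM1 was at or under 0.255 CPM in all 6 libraries. SELP, P-selectin, was the highest-ranked named gene, with 7.87, 6.41 and 8.73 CPM in 1/7MC+Pyr+FGF, against 0.420, 0.351 and 0.334 CPM in MC (log2 fold change 4.36 ± 0.24, adjusted p = 1.86e-07). PLVAP, a protein of endothelial fenestrae, had 33.0, 44.7 and 39.2 CPM in 1/7MC+Pyr+FGF, against 3.56, 2.52 and 3.04 CPM in MC, and the water channel AQP1 had 7.96, 6.44 and 7.09 CPM in 1/7MC+Pyr+FGF, against 0.728, 0.638 and 0.631 CPM in MC.

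Several transcripts of glucose use, and the monocarboxylate transporter SLC16A3, were lower in 1/7MC+Pyr+FGF, while SLC2A1 and LDHB did not pass. Another monocarboxylate transporter, SLC16A1, rose by 0.45 with 3 MC libraries, on 6842 to 15413 reads per library, against 25 to 190 for SLC16A3. LDHA, the lactate dehydrogenase subunit that favours lactate, had 122, 88.5 and 126 CPM in 1/7MC+Pyr+FGF, against 375, 370.1 and 389 CPM in MC (log2 fold change -1.75 ± 0.14, adjusted p = 3.92e-06). SLC16A3, the monocarboxylate transporter MCT4, had 1.05, 1.30 and 0.709 CPM in 1/7MC+Pyr+FGF, against 5.32, 5.46 and 4.64 CPM in MC (log2 fold change -2.33 ± 0.30, adjusted p = 1.41e-04). SLC2A3, a glucose transporter, had 345, 412 and 360.2 CPM in 1/7MC+Pyr+FGF, against 671, 718 and 729 CPM in MC (log2 fold change -0.92 ± 0.11, adjusted p = 8.75e-05). HK2, a hexokinase, had 43.2, 46.1 and 34.8 CPM in 1/7MC+Pyr+FGF, against 75.7, 57.5 and 54.7 CPM in MC. For each of these 4 every 1/7MC+Pyr+FGF library was below every MC library. Of 22 tested members 11 fell, and those 4 passed both fits. The other glucose transporter SLC2A1 had 151, 215 and 159.9 CPM in 1/7MC+Pyr+FGF, against 159, 171 and 166 CPM in MC (log2 fold change 0.09 ± 0.15, adjusted p = 0.685). LDHB, the other lactate dehydrogenase subunit, had 2119, 1234 and 1523 CPM in 1/7MC+Pyr+FGF, against 1589.9, 1608 and 1701 CPM in MC (log2 fold change -0.01 ± 0.19, adjusted p = 0.981). Their groups overlapped, and 1/7MC+Pyr+FGF replicate 1 held the highest LDHB level. The 1 member that rose, PFKFB3, had 47.4, 67.6 and 62.3 CPM in 1/7MC+Pyr+FGF, against 55.9, 28.9 and 24.2 CPM in MC, and it lost its call without any 1 of 4 libraries (1/7MC+Pyr+FGF replicate 2 or 3, MC replicate 2 or 3).

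At the pyruvate branch, PDK1 fell and ME1 rose in both fits. PDK1, a kinase that shuts off pyruvate dehydrogenase, had 10.9, 9.71 and 12.3 CPM in 1/7MC+Pyr+FGF, against 23.1, 26.7 and 25.5 CPM in MC (log2 fold change -1.19 ± 0.14, adjusted p = 5.41e-05). ME1, the cytosolic malic enzyme that makes NADPH and pyruvate, had 37.3, 43.9 and 44.2 CPM in 1/7MC+Pyr+FGF, against 22.9, 29.0 and 28.4 CPM in MC (log2 fold change 0.64 ± 0.12, adjusted p = 0.00169). MPC1, part of the carrier that takes pyruvate into mitochondria, had 30.7, 25.8 and 30.2 CPM in 1/7MC+Pyr+FGF, against 22.1, 14.4 and 15.4 CPM in MC, and it did not pass with MC replicate 1 alone (adjusted p = 0.201). The same was so for the monocarboxylate transporter SLC16A1 (0.45). In all, 5 of 20 tested members rose and 3 fell. In the tricarboxylic acid cycle 6 of 21 rose and 0 fell (0 at an unadjusted p under 0.05, and 0 with DESeq2), and SUCLA2, a succinyl-CoA ligase subunit, was the 1 that passed both fits, with 101, 84.5 and 92.0 CPM in 1/7MC+Pyr+FGF, against 55.2, 68.0 and 68.8 CPM in MC. The number that rose was 2 or 3 without any 1 of 1/7MC+Pyr+FGF replicates 1 and 3 and MC replicates 1 to 3, and the list median was 0.03. In 1/7MC+Pyr+FGF replicate 1 were the highest levels of the 6 libraries for 13 of these 21 genes (61.9%), compared with 24.0% of all genes tested, and without that library the list median was -0.04. Of 55 nuclear-encoded respiratory chain subunits 3 rose and 2 fell, and 0 passed both fits in either direction (at an unadjusted p under 0.05, 10 were higher and 3 lower, and with DESeq2, 3 and 2). 1/7MC+Pyr+FGF replicate 1 was the highest of the 6 libraries for 46 of these 55 genes (83.6%). Without that library the list median was -0.03, against 0.19 with it. The number that rose was 13 without 1/7MC+Pyr+FGF replicate 2, and 1 without any 1 of 1/7MC+Pyr+FGF replicates 1 and 3 and MC replicates 2 and 3. The number that fell was 1 without 1/7MC+Pyr+FGF replicate 2 or MC replicate 2 or 3. Of 13 mitochondrially encoded subunits, ATP8 and ND4L were past the threshold with 3 MC libraries but not with MC replicate 1 alone, and 1 of the 2 was lost without 1/7MC+Pyr+FGF replicate 1 or 3 or MC replicate 2.

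**Figure D4:**
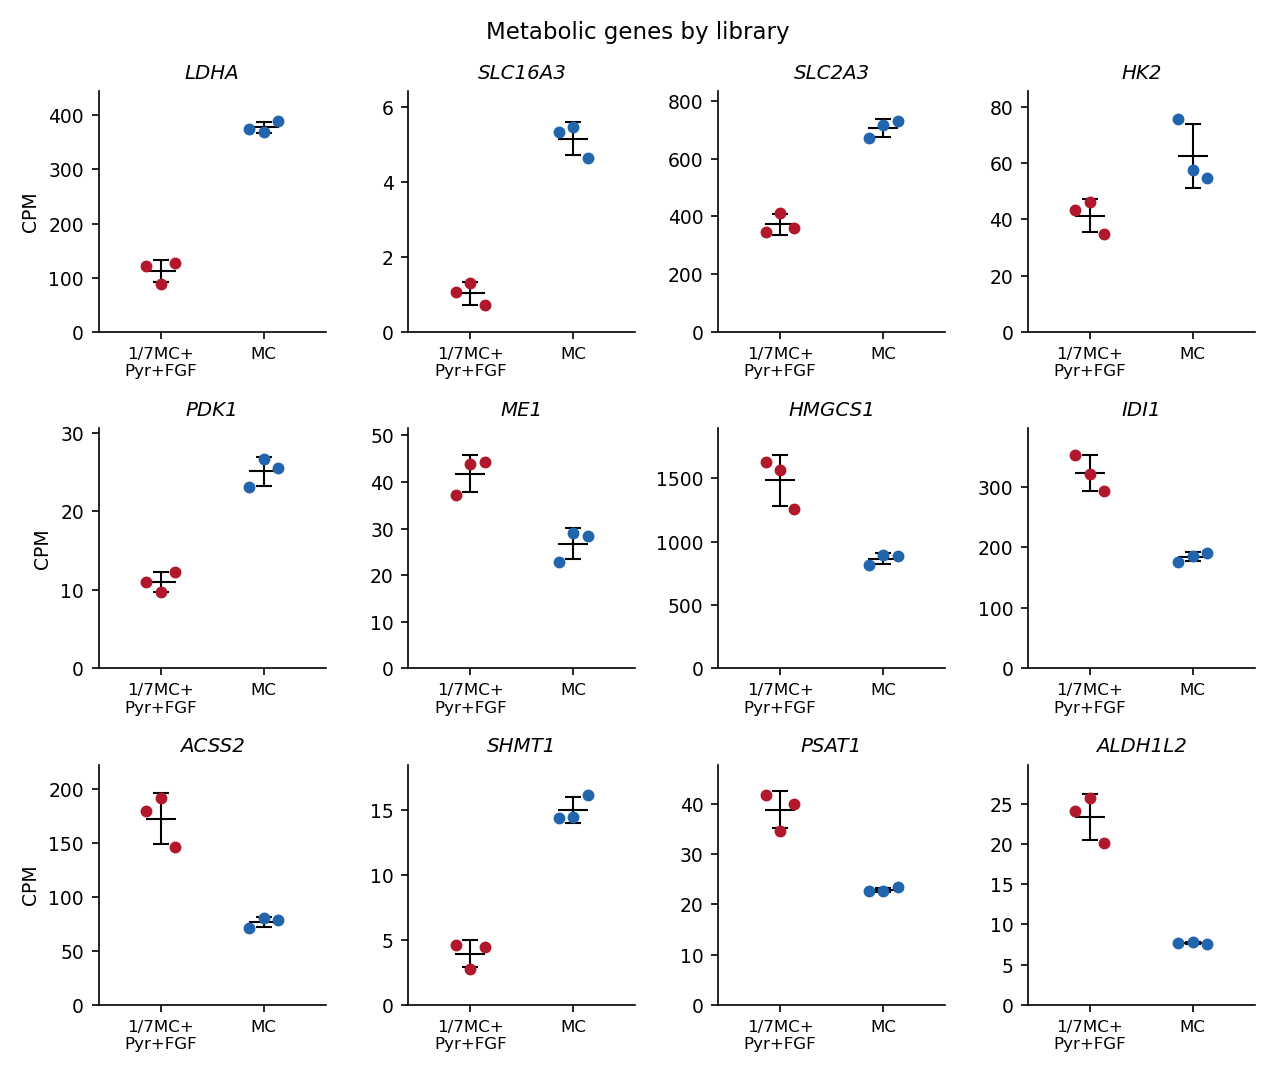
CPM by library (points, replicates 1 to 3 from left to right) in 1/7MC+Pyr+FGF and in MC, with the mean and SD of 3 libraries, for 12 metabolic genes; each axis starts at 0. The groups do not overlap in any panel, with LDHA, SLC16A3, SLC2A3, HK2, PDK1 and SHMT1 lower and the other 6 genes higher in 1/7MC+Pyr+FGF.

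Sterol synthesis genes rose. Of 28 tested members of the cholesterol and fatty acid list 17 rose, 8 in both fits, and 0 fell (0 at an unadjusted p under 0.05, and 0 with DESeq2, but 2 without 1/7MC+Pyr+FGF replicate 2), with a list median of 0.46. ACSS2, which makes acetyl-CoA from acetate, had 179.8, 192 and 146 CPM in 1/7MC+Pyr+FGF, against 71.7, 80.3 and 78.4 CPM in MC (log2 fold change 1.17 ± 0.11, adjusted p = 7.46e-06). HMGCS1, the enzyme that opens the mevalonate route, had 1631, 1564 and 1259 CPM in 1/7MC+Pyr+FGF, against 813, 892 and 890.2 CPM in MC (log2 fold change 0.78 ± 0.12, adjusted p = 5.81e-04). IDI1, the isopentenyl diphosphate isomerase, had 353, 322 and 294 CPM in 1/7MC+Pyr+FGF, against 176, 187 and 191 CPM in MC. FDPS, the farnesyl diphosphate synthase, had 603, 469.9 and 427 CPM in 1/7MC+Pyr+FGF, against 277, 285 and 307 CPM in MC. The groups did not overlap for these 4 genes. The others that passed both fits were MSMO1, SC5D and NSDHL of the sterol route and ELOVL6, a fatty acid elongase. The fatty acid enzymes FASN (-0.18), ACACA (0.15) and SCD (-0.02), and the regulators SREBF1 (-0.30) and SREBF2 (-0.35), did not pass. SQLE, squalene epoxidase, had 310.2, 376 and 276 CPM in 1/7MC+Pyr+FGF, against 214, 309.8 and 311 CPM in MC, with MC replicate 1 lower than the other 2 MC libraries.

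Serine and one-carbon genes moved in both directions. ALDH1L2, a mitochondrial enzyme that oxidizes formyl-tetrahydrofolate to make NADPH, had 24.1, 25.7 and 20.1 CPM in 1/7MC+Pyr+FGF, against 7.70, 7.76 and 7.50 CPM in MC (log2 fold change 1.61 ± 0.12, adjusted p = 2.36e-06). PSAT1, a step of serine synthesis, had 41.8, 34.7 and 40.1 CPM in 1/7MC+Pyr+FGF, against 22.7, 22.6 and 23.4 CPM in MC (log2 fold change 0.76 ± 0.13, adjusted p = 9.59e-04). SHMT1, the cytosolic serine hydroxymethyltransferase, fell, with 4.64, 2.75 and 4.42 CPM in 1/7MC+Pyr+FGF, against 14.4, 14.5 and 16.2 CPM in MC (log2 fold change -1.93 ± 0.18, adjusted p = 8.99e-06). Its mitochondrial counterpart SHMT2 did not pass at 0.16 (adjusted p = 0.198). GLDC, a glycine cleavage subunit of mitochondria, had 36.9, 34.7 and 33.9 CPM in 1/7MC+Pyr+FGF, against 55.0, 56.0 and 62.8 CPM in MC (log2 fold change -0.72 ± 0.09, adjusted p = 9.32e-05). In all 5 of 14 rose (3 without 1/7MC+Pyr+FGF replicate 1) and 3 fell, and these 4 genes passed both fits. Amino acid transporters had 4 of 17 higher, 2 in both fits, and 0 lower (1 at an unadjusted p under 0.05, and 0 with DESeq2). SLC1A3, a glutamate and aspartate transporter, had 5.53, 8.65 and 5.84 CPM in 1/7MC+Pyr+FGF, against 1.46, 1.15 and 1.22 CPM in MC. SLC43A2, a transporter of large neutral amino acids, had 37.9, 51.7 and 49.2 CPM in 1/7MC+Pyr+FGF, against 16.8, 17.0 and 13.6 CPM in MC. The summed level of the 17 transporters was 1360, 1901 and 1440 CPM in 1/7MC+Pyr+FGF, against 1407, 1401 and 1381 CPM in MC, so that replicate 2 stood apart and the other 1/7MC+Pyr+FGF libraries lay near MC. That library was the highest of the 6 for 13 of the 17 (76.5%), compared with 18.8% of all genes tested, and without it 3 members rose and the list median was 0.17, against 0.34 with it. It was also the highest for 12 of 19 matrix protease and plasminogen genes, 10 of 17 integrins, 5 of 8 endoderm genes, 15 of 28 genes of cholesterol and fatty acid synthesis, 12 of 23 FGF and ERK response genes and 7 of 13 mitochondrially encoded subunits. Of 16 amino acid stress genes 7 rose and 4 fell, 1 and 2 in both fits (3 or 4 rose without 1/7MC+Pyr+FGF replicate 2 or MC replicate 2 or 3). TRIB3, a pseudokinase, had 5.43, 6.63 and 3.66 CPM in 1/7MC+Pyr+FGF, against 1.82, 2.14 and 2.12 CPM in MC, while CHAC1, which degrades glutathione, had 3.40, 4.21 and 2.58 CPM in 1/7MC+Pyr+FGF, against 7.28, 7.95 and 8.72 CPM in MC. Of 20 oxidative stress genes 6 rose and 2 fell, and both fits were passed in each direction (by SRXN1, NQO1 and TXNRD1 among the rises). SOD2, which fell with 3 MC libraries, had 25.7, 19.4 and 24.0 CPM in 1/7MC+Pyr+FGF, against 29.9, 82.6 and 78.3 CPM in MC. Its log2 fold change was -1.46, and -0.39 with MC replicate 1 alone. TXNRD1, thioredoxin reductase, had 247, 251 and 219 CPM in 1/7MC+Pyr+FGF, against 151, 154 and 152 CPM in MC (log2 fold change 0.65 ± 0.09, adjusted p = 2.11e-04). SRXN1, sulfiredoxin, had 41.8, 40.5 and 31.7 CPM in 1/7MC+Pyr+FGF, against 24.5, 8.36 and 9.09 CPM in MC, so that its rise was 1.43 with 3 MC libraries, 0.62 with MC replicate 1 alone and 2.12 without that library. Of 17 heat shock genes and chaperones 2 rose (1 without 1/7MC+Pyr+FGF replicate 1 or 3 or MC replicate 2 or 3) and 2 fell, and HSPH1, at 0.46, was the 1 that passed both fits.

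Hypoxia-response genes moved in both directions. Of 22 tested members 10 fell, 5 in both fits, and 7 rose, 5 in both. BNIP3, a mitophagy receptor induced by HIF1, had 0.0703, 0.121 and 0.170 CPM in 1/7MC+Pyr+FGF, against 5.41, 4.72 and 5.05 CPM in MC (log2 fold change -5.38 ± 0.30, adjusted p = 2.11e-07). That is 3, 4 and 6 reads in the 1/7MC+Pyr+FGF libraries, against 193, 148 and 136 reads in the MC libraries. CA9, a carbonic anhydrase induced by HIF1, had 0.422, 0.575 and 0.850 CPM in 1/7MC+Pyr+FGF, against 4.57, 4.50 and 5.83 CPM in MC (log2 fold change -3.01 ± 0.26, adjusted p = 5.13e-06). In the other direction, PLOD2, a collagen lysyl hydroxylase, rose by 2.05 and ADM, the peptide adrenomedullin, by 1.69 on the log2 scale. BHLHE40, a helix-loop-helix repressor, had 18.8, 20.9 and 25.1 CPM in 1/7MC+Pyr+FGF, against 5.13, 5.30 and 4.38 CPM in MC (log2 fold change 2.13 ± 0.14, adjusted p = 5.52e-07). P4HA1, a collagen prolyl hydroxylase subunit, and EGLN3, an oxygen sensor, also rose in both fits. MXI1, ANGPTL4 and KDM3A fell in both. HIF1A itself did not pass (0.01, adjusted p = 0.96).

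Readouts of FGF and ERK signalling did not all rise, and the immediate early genes fell. Of 23 tested FGF and ERK response genes 9 rose, 4 in both fits, and FOSL1 fell with 3 MC libraries. PHLDA1 had 24.1, 27.3 and 29.8 CPM in 1/7MC+Pyr+FGF, against 9.97, 8.40 and 9.83 CPM in MC (log2 fold change 1.52 ± 0.11, adjusted p = 1.24e-06). SPRY2, a feedback inhibitor of the pathway, had 124, 141 and 133 CPM in 1/7MC+Pyr+FGF, against 71.2, 70.5 and 73.0 CPM in MC (log2 fold change 0.89 ± 0.08, adjusted p = 6.88e-06). SPHK1, sphingosine kinase, had 4.15, 3.39 and 5.75 CPM in 1/7MC+Pyr+FGF, against 1.18, 0.926 and 0.965 CPM in MC. MYC was the other that passed both fits, at 0.85. SPRY4, another feedback inhibitor, had 55.7, 104 and 55.7 CPM in 1/7MC+Pyr+FGF, against 47.4, 23.2 and 22.1 CPM in MC and did not pass with MC replicate 1 alone (adjusted p = 0.245). The phosphatase DUSP6, which acts on ERK, had 146, 173 and 154 CPM in 1/7MC+Pyr+FGF, against 150.3, 136 and 129.6 CPM in MC (log2 fold change 0.19 ± 0.09, adjusted p = 0.125), and the ETS factor ETV5 had 59.2, 80.8 and 53.7 CPM in 1/7MC+Pyr+FGF, against 67.8, 70.7 and 64.5 CPM in MC (log2 fold change -0.07 ± 0.13, adjusted p = 0.719). Both are standard targets of FGF signalling, and neither passed. ETV4, of the same ETS family, rose with 3 MC libraries (0.62). Without 1/7MC+Pyr+FGF replicate 2, 3 members of the list fell, and without MC replicate 2, 2 did.

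Of 19 tested immediate early genes 13 fell, 8 in both fits, and 1 rose (KLF6, 0.48), with a list median of -0.43. Without MC replicate 2 the number that fell was 8. FOS, an AP-1 subunit, had 9.16, 9.38 and 14.3 CPM in 1/7MC+Pyr+FGF, against 155, 164 and 158 CPM in MC (log2 fold change -3.86 ± 0.17, adjusted p = 3.11e-08). EGR1, a zinc-finger factor induced within minutes of growth factor addition, had 59.6, 64.9 and 70.5 CPM in 1/7MC+Pyr+FGF, against 563, 595 and 601 CPM in MC (log2 fold change -3.17 ± 0.12, adjusted p = 2.46e-08). FOSB had 0.492, 0.212 and 0.482 CPM in 1/7MC+Pyr+FGF, against 17.6, 16.2 and 19.3 CPM in MC (log2 fold change -5.45 ± 0.26, adjusted p = 5.31e-08). Each of these was at least 7 times lower in the highest 1/7MC+Pyr+FGF library than in the lowest MC library. EGR3, EGR2, ZFP36, NR4A1 and JUN also fell in both fits, while JUNB did not pass at -0.04 (adjusted p = 0.876). ACTA1, skeletal muscle actin, had 2.06, 2.63 and 2.55 CPM in 1/7MC+Pyr+FGF, against 46.0, 45.4 and 45.7 CPM in MC (log2 fold change -4.24 ± 0.17, adjusted p = 2.69e-08).

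Among FGF ligands, receptors and coreceptors, FGF8, a ligand of the anterior neural border and the streak, fell, with 0.422, 0.0908 and 0.482 CPM in 1/7MC+Pyr+FGF, against 3.05, 2.78 and 2.71 CPM in MC (log2 fold change -3.06 ± 0.50, adjusted p = 7.55e-04). SDC2, a heparan sulfate coreceptor, rose, with 276, 257 and 279.9 CPM in 1/7MC+Pyr+FGF, against 165, 121 and 116 CPM in MC (log2 fold change 1.02 ± 0.12, adjusted p = 5.96e-05). FGFR1 had 406, 527 and 452 CPM in 1/7MC+Pyr+FGF, against 579, 508 and 502 CPM in MC (log2 fold change -0.20 ± 0.13, adjusted p = 0.252), with overlapping groups. FGF2, the endogenous gene for basic FGF, had 7.87, 9.95 and 7.96 CPM in 1/7MC+Pyr+FGF, against 8.71, 12.2 and 12.1 CPM in MC (log2 fold change -0.36 ± 0.18, adjusted p = 0.138), and it was past the threshold only without MC replicate 1 (-0.50, adjusted p = 0.0267). FGF1 rose but was low, at or under 0.605 CPM in all 6 libraries, and lost its call without 1/7MC+Pyr+FGF replicate 3 or without MC replicate 1 or 2. Its log2 fold change was 2.08, and 3.97 without MC replicate 3. GPC3, a glypican, fell by 0.77. In all 5 of 22 rose (22.7%) and 4 fell (18.2%), against 17.1% and 15.0% of all genes tested. Without MC replicate 1, 7 fell, while 3 rose without it or without MC replicate 2 or 1/7MC+Pyr+FGF replicate 3.

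Of 16 BMP genes 5 rose and 3 fell, 2 and 1 in both fits. The ligands went in opposite directions: BMP4 had 118, 105 and 135 CPM in 1/7MC+Pyr+FGF, against 36.9, 40.5 and 41.6 CPM in MC (log2 fold change 1.59 ± 0.11, adjusted p = 1.29e-06), whereas BMP7 had 14.8, 12.5 and 15.3 CPM in 1/7MC+Pyr+FGF, against 39.9, 41.5 and 39.5 CPM in MC (log2 fold change -1.50 ± 0.12, adjusted p = 2.37e-06). BMP5, another ligand, had 2.46, 2.60 and 1.64 CPM in 1/7MC+Pyr+FGF, against 0.168, 0.415 and 0.260 CPM in MC, a rise of 2.99 with 3 MC libraries and 3.69 with MC replicate 1 alone. Of the WNT list 5 of 19 rose and 2 fell. The secreted WNT inhibitors DKK2 and DKK1 were the 2 that rose in both fits. DKK2 had 6.18, 9.65 and 7.96 CPM in 1/7MC+Pyr+FGF, against 0.196, 0.511 and 0.854 CPM in MC (log2 fold change 3.97 ± 0.38, adjusted p = 1.26e-05), and its log2 fold change was 5.29 with MC replicate 1 alone. DKK1 had 8.85, 6.56 and 8.96 CPM in 1/7MC+Pyr+FGF, against 1.74, 2.23 and 2.41 CPM in MC (log2 fold change 1.94 ± 0.18, adjusted p = 1.02e-05). AXIN2, a general target of WNT signalling, did not pass (0.29, adjusted p = 0.103). WNT5B, a ligand, had 2.13, 3.57 and 3.15 CPM in 1/7MC+Pyr+FGF, against 6.55, 14.4 and 13.8 CPM in MC, lower in both fits (-1.98, and -1.18 with MC replicate 1 alone). In the interferon list 7 of 22 rose, 4 in both fits, and IRF7 fell (-1.62). ISG15, a ubiquitin-like protein, had 2.97, 1.94 and 4.39 CPM in 1/7MC+Pyr+FGF, against 0.644, 1.02 and 0.557 CPM in MC. IFI6 had 2.86, 1.97 and 3.43 CPM in 1/7MC+Pyr+FGF, against 0.672, 0.479 and 0.520 CPM in MC (log2 fold change 2.29 ± 0.25, adjusted p = 3.60e-05). OAS1Y had 4.57, 2.78 and 6.40 CPM in 1/7MC+Pyr+FGF, against 1.51, 1.44 and 0.928 CPM in MC, and its reads may be shared with the near-identical OAS1X. IFI44L, low in all 6 libraries, had a log2 fold change of 2.56 and lost its call without 1/7MC+Pyr+FGF replicate 3 or MC replicate 2, and it was 4.67 without MC replicate 3. MX1 did not pass (0.36).

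Cell-cycle inhibitors of the INK4 type rose, while cycling genes did not pass both fits. CDKN2B, which encodes p15, had 37.6, 29.7 and 48.8 CPM in 1/7MC+Pyr+FGF, against 6.55, 3.10 and 2.49 CPM in MC (log2 fold change 3.24 ± 0.30, adjusted p = 1.02e-05), and its log2 fold change was 2.55 with MC replicate 1 alone. CDKN2A, the neighbouring INK4 gene, had 11.8, 9.14 and 14.6 CPM in 1/7MC+Pyr+FGF, against 4.43, 3.38 and 4.23 CPM in MC (log2 fold change 1.56 ± 0.18, adjusted p = 4.88e-05). CCND2, cyclin D2, had 77.7, 75.3 and 83.2 CPM in 1/7MC+Pyr+FGF, against 38.7, 40.7 and 38.3 CPM in MC (log2 fold change 1.01 ± 0.08, adjusted p = 3.06e-06). CCND3 (0.99) and the p53 target MDM2 (0.74) rose too, whereas CDKN1A, which encodes p21, did not pass (0.06). TP53I3, another p53 target, was 1 of the 2 list members that fell with 3 MC libraries. It had 1.08, 1.85 and 1.81 CPM in 1/7MC+Pyr+FGF, against 3.28, 3.89 and 3.75 CPM in MC (log2 fold change -1.21 ± 0.25, adjusted p = 0.00317). In all 8 of 21 rose, 5 in both fits. Of 30 S phase and mitosis genes 5 fell and 2 rose, with 0 past both fits. MKI67, the proliferation marker Ki-67, had 272, 491 and 344 CPM in 1/7MC+Pyr+FGF, against 565, 599.7 and 583 CPM in MC, and it lost its call without 1/7MC+Pyr+FGF replicate 1 or 3. Of these 30 genes 1 rose without 1/7MC+Pyr+FGF replicate 1, or without MC replicate 2 or 3.

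Imprinted genes moved in both directions. DLK1, a paternally expressed NOTCH-family ligand, had 41.6, 32.6 and 55.3 CPM in 1/7MC+Pyr+FGF, against 409, 425 and 423 CPM in MC (log2 fold change -3.28 ± 0.21, adjusted p = 5.93e-07). MEST, also paternally expressed, fell by 0.76 on the log2 scale. IGF2, the insulin-like growth factor, had 87.7, 107 and 142 CPM in 1/7MC+Pyr+FGF, against 41.6, 41.1 and 41.6 CPM in MC (log2 fold change 1.44 ± 0.17, adjusted p = 8.66e-05). PLAGL1, a zinc-finger factor, had 39.8, 49.3 and 42.1 CPM in 1/7MC+Pyr+FGF, against 14.7, 15.1 and 16.8 CPM in MC. NDN, necdin, had 64.7, 61.2 and 74.8 CPM in 1/7MC+Pyr+FGF, against 28.3, 30.9 and 32.3 CPM in MC. Of 14 tested members 4 rose (the fourth was SGCE) and 3 fell, and all but PEG10 passed both fits. In the IGF system, IGFBP7 had 63.8, 61.2 and 74.7 CPM in 1/7MC+Pyr+FGF, against 7.03, 7.25 and 8.54 CPM in MC (log2 fold change 3.13 ± 0.12, adjusted p = 2.46e-08). IGFBP6 had 55.4, 47.1 and 54.3 CPM in 1/7MC+Pyr+FGF, against 23.1, 22.5 and 21.4 CPM in MC. IGFBP4 had 167, 181 and 199 CPM in 1/7MC+Pyr+FGF, against 108, 119.9 and 118 CPM in MC. IGFBP3 went the other way, with 606, 730 and 618 CPM in 1/7MC+Pyr+FGF, against 908, 1246 and 1218 CPM in MC. Its log2 fold change was -0.79 ± 0.12 (adjusted p = 5.87e-04), and -0.50 with MC replicate 1 alone. IGF2BP2, an RNA-binding protein, fell by 0.61. In all 3 of 13 rose, all in both fits, and 2 fell, 1 in both. Of 16 DNA methylation and chromatin genes 3 fell with 3 MC libraries (KDM5B, EED and SETDB1) and 0 rose (0 at an unadjusted p under 0.05, and 0 with DESeq2). None of these 3 passed with MC replicate 1 alone, and EED lost its call without 1/7MC+Pyr+FGF replicate 2 or 3 or MC replicate 3.

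The other groups show where the supplemented cells stood, as values with no test here. The summed fibroblast list averaged 29341 CPM in 1/7MC+Pyr+FGF, 42420 CPM in 1/7MC+Pyr and 32747 CPM in 1/7MC, with 10750 CPM in MC. The summed immediate early list averaged 740 CPM in 1/7MC+Pyr+FGF, 746 CPM in 1/7MC+Pyr and 832 CPM in 1/7MC, with 1605 CPM in MC. All 3 low-feeder groups were thus above MC in the first sum and below it in the second. FEZF1 had 2.55, 2.66 and 3.43 CPM in 1/7MC+Pyr+FGF, 4.15, 3.80 and 4.72 CPM in 1/7MC+Pyr and 3.91, 3.63 and 5.57 CPM in 1/7MC, with 55.8, 53.1 and 51.2 CPM in MC, so all 3 low-feeder groups lay far below MC. EPCAM averaged 9.94 ± 1.13 CPM in 1/7MC+Pyr+FGF, 20.9 ± 0.80 CPM in 1/7MC+Pyr and 17.7 ± 1.53 CPM in 1/7MC, with 81.2 ± 7.54 CPM in MC (SD, n = 3 each). RAX and LDHA were lowest in the groups with pyruvate. RAX averaged 0.84 ± 0.36 CPM in 1/7MC+Pyr+FGF, 0.60 ± 0.10 CPM in 1/7MC+Pyr and 7.73 ± 2.15 CPM in 1/7MC, with 12.1 ± 0.46 CPM in MC. LDHA averaged 112 ± 20.7 CPM in 1/7MC+Pyr+FGF, 99.5 ± 13.3 CPM in 1/7MC+Pyr and 168 ± 20.1 CPM in 1/7MC, with 378 ± 9.72 CPM in MC. PAX5, BAMBI and IGF2 peaked in 1/7MC, with the supplemented cells nearer to MC. PAX5 averaged 2.60 ± 0.39 CPM in 1/7MC+Pyr+FGF, 2.89 ± 0.18 CPM in 1/7MC+Pyr and 31.1 ± 5.16 CPM in 1/7MC, with 0.24 ± 0.33 CPM in MC. IGF2 averaged 112 ± 27.8 CPM in 1/7MC+Pyr+FGF, 197 ± 37.3 CPM in 1/7MC+Pyr and 557 ± 71.0 CPM in 1/7MC, with 41.4 ± 0.32 CPM in MC. APOA1 was highest in the supplemented cells, at 521 ± 31.3 CPM, compared with 308 ± 16.3 CPM in 1/7MC+Pyr, 297 ± 1.56 CPM in 1/7MC and 187 ± 16.2 CPM in MC.

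**Figure D5:**
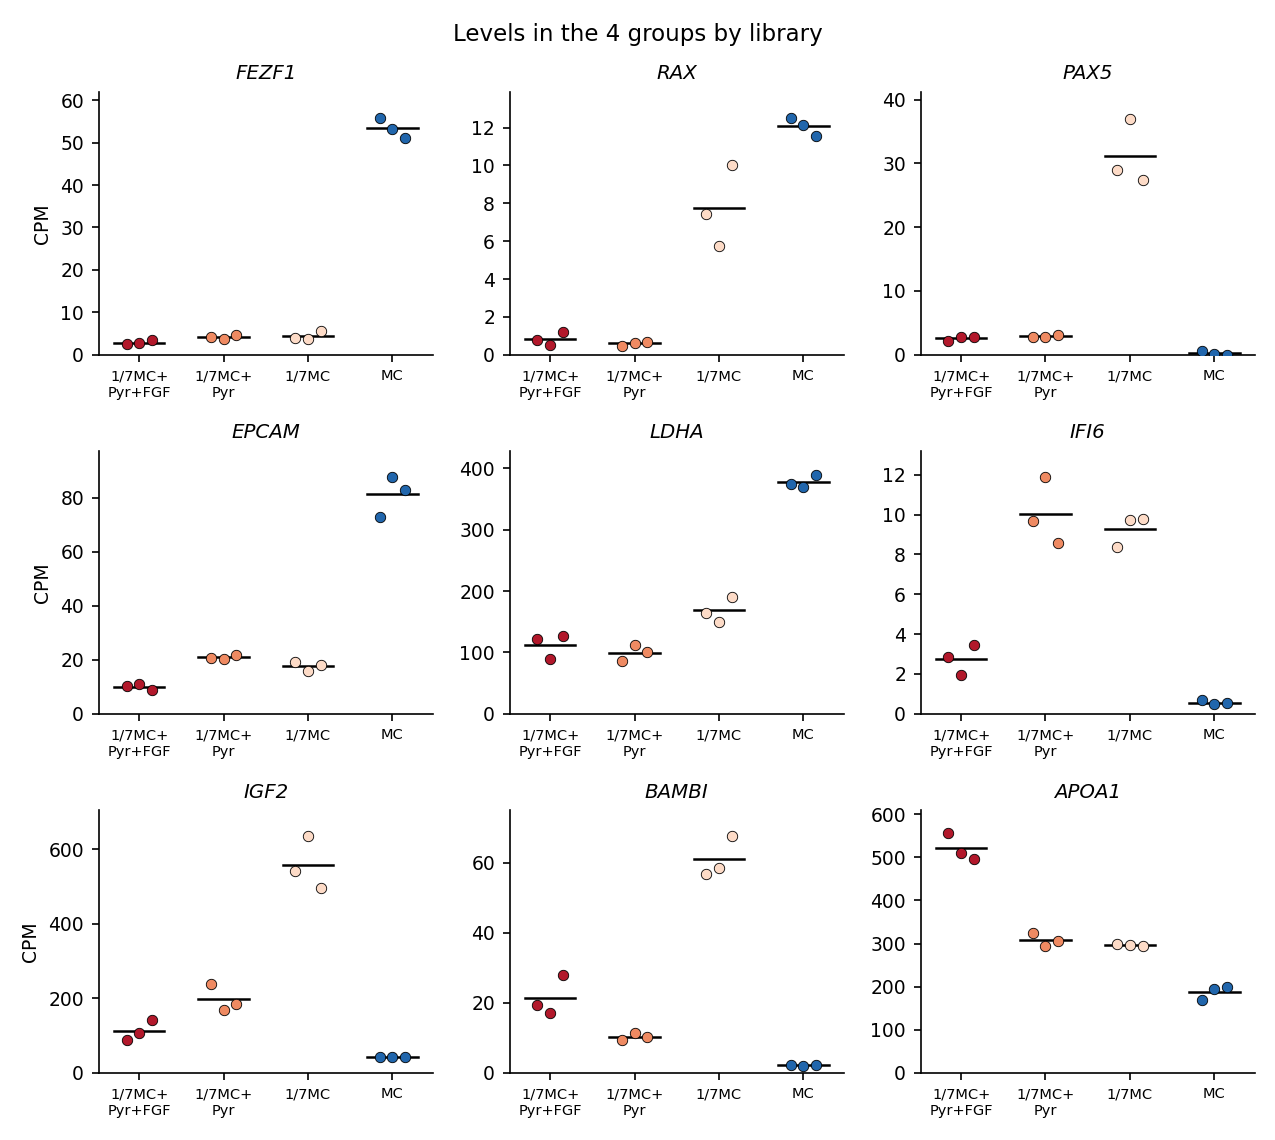
CPM by library (points, replicates 1 to 3 from left to right; the line is the mean of 3) in 1/7MC+Pyr+FGF, 1/7MC+Pyr, 1/7MC and MC for 9 genes that differ between 1/7MC+Pyr+FGF and MC; each axis starts at 0. FEZF1 and EPCAM are low in all 3 low-feeder groups, PAX5, IGF2 and BAMBI peak in 1/7MC, and APOA1 is highest in 1/7MC+Pyr+FGF.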

How the data were processed

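RNA-seq libraries of 12 samples were made from poly-T-selected mRNA with a NEBNext Ultra kit, per the labels' protocols, with no strand-marking step stated, so the counts of overlapping or antisense genes, and of near-identical copies, are uncertain. The submitters' processing notes name fastp 0.19.7, HISAT2 2.1.0, Subread 2.0, featureCounts and the build bosTau9. The authors deposited raw whole-number read counts per gene. Of 19285 entries, 400 that shared an Ensembl or Entrez identifier were dropped and 18885 kept, 18803 with a symbol from the RefSeq gene table of another assembly, ARS-UCD2.0. Of 128 shared Ensembl identifiers, 80 to 86 differed in their counts in each of 10 libraries and 0 in MC replicates 2 and 3. The second deposited table, not used here, holds length-scaled values with no correction for depth.

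Counts were normalized by TMM (factors 0.968 to 1.04), filtered with filterByExpr and tested with edgeR 4.0.16 (quasi-likelihood F test, 12 libraries, 1 coefficient per group, R 4.3.3), with Benjamini-Hochberg adjustment over 13920 genes. The second fit, with MC replicate 1 alone for MC, used 10 libraries and tested 14361 genes. The SE was computed as |log2 fold change|/√F. Libraries of a group differed by more than counting error (chi-square per degree of freedom at least 3.47), so none was taken for a library deposited again; this covers counting error only and does not show separate cultures. Scripts were tested on simulated data. DESeq2 1.42.0 was an alternative, besides other filters, scalings and samples.

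The libraries compared, the 38 gene lists and 33 panel genes were chosen with earlier results of these data known. Named genes are the 12 highest and 12 lowest non-LOC symbols that passed both fits with groups that did not overlap and a mean of at least 5 CPM in the higher group, up to 4 changed members of each list with the largest fold change, and the panel. Other list members were named after their values were seen.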

Additional observations from a re-analysis of the deposited data

How the results depend on the processing

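Against 4458 genes that changed (2376 higher, 2082 lower), the fit with MC replicate 1 alone gave 1723 (842 higher, 881 lower), of which 1567 were among the 4458; that fit has 1 library in the MC arm. With only the 6 libraries of the 2 groups 1472 rose. Leaving out 1 library at a time gave 2997 to 4471 genes, with 1544 to 2411 higher and 1453 to 2067 lower. DESeq2, its size factors, no filter on low counts, a stricter filter and keeping entries with shared identifiers gave 3364 to 4931 in all. Same-numbered deviations from the group means correlated at -0.09, -0.05 and -0.02. The MC deviations also hold the difference in gene models between MC replicate 1 and MC replicates 2 and 3. These correlations therefore cannot show whether the replicate numbers pair the libraries. The fit with the replicate block gave 4087 genes, 4003 of them among the 4458. Of 2458 fold changes of named genes recomputed, 2289 kept direction and side of the threshold, 159 lost the threshold, 1 crossed it and 9 turned direction, all 9 for genes that had not changed. With single libraries left out, SLC2A1 ranged from -0.087 (without 1/7MC+Pyr+FGF replicate 2) to 0.18, POU5F1 from -0.086 (without 1/7MC+Pyr+FGF replicate 1) to 0.16, OTX2 from -0.019 (without 1/7MC+Pyr+FGF replicate 1) to 0.13, LDHB from -0.24 to 0.16 (above 0 without 1/7MC+Pyr+FGF replicate 2 or 3 or MC replicate 3) and ETV5 from -0.26 to 0.050 (without 1/7MC+Pyr+FGF replicate 3). With MC replicate 1 alone OTX2 was -0.063 and LDHB 0.014. The cause was not tested. List medians turned direction in 20 cases, in lists whose medians lay near 0 or that are short. Genes under about 1 CPM rest on few reads, and their fold changes are the least precise.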
